A study of Mus musculus with 6 samples.

Results

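ErbB receptors are tyrosine kinases of the cell surface, and neuregulins are their ligands. The genes examined here were the receptor genes *Egfr*, *Erbb2*, *Erbb3* and *Erbb4*, the neuregulin genes *Nrg1*, *Nrg2*, *Nrg3* and *Nrg4*, and *Hbegf*, which encodes heparin-binding EGF-like growth factor. They were taken by symbol, 9 of the 25239 genes listed in each library, and all 9 passed the filter on low counts that left 14445 genes to test. Hippocampal RNA was sequenced from male C57BL/6 mice, 3 of them WT, with the genotype Ube3a m+/p+, while the other 3 were Ube3a m-/p+. Each mouse gave 1 library, and its age was 6 to 8 weeks in the study's methods. Ube3a m-/p+ mice lack a functional maternal copy of *Ube3a*, which encodes a ubiquitin ligase, and keep the paternal copy. They are used as a model of Angelman syndrome. In neurons the paternal copy is largely silent, whereas other cells of the brain use both copies. The sources used here do not give the litters of the mice, so p-values measure the spread between these animals only.

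Ligands of this family carry an EGF-like domain that binds the outer part of a receptor, after which receptors pair and phosphorylate each other. ErbB2 binds no known ligand of its own and acts as a partner, while ErbB3 has a very weak kinase and signals mainly through a partner. ErbB4 is both a neuregulin receptor and an active kinase. In the hippocampus *Erbb4* is known chiefly as a gene of GABAergic interneurons, *Erbb3* as a gene of the oligodendrocyte lineage, and neuregulins as products of neurons above all.

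The study measured *Erbb4* by RT-qPCR as well as by sequencing, and the primers show which part of the transcript that assay reads. They are given 5′ to 3′, followed by the product they span in the GENCODE M21 transcripts, with the primer sites in capitals. The forward primer crosses the junction of exons 2 and 3, with its first 11 bases in exon 2, and the reverse primer lies in exon 3, both in coding sequence. On the minus strand of chromosome 1 of GRCm38 (mm10) the product of 166 bp starts at 68740392 and ends at 68560528, with the intron between these exons spliced out. It occurs in 3 of the 5 annotated *Erbb4* transcripts, whereas the sequencing counts cover reads on any exon of the gene.
Erbb4 forward primer: CCTTCCTGCGGTCTATCCGA
Erbb4 reverse primer: CCAAAGTTGCCATCTTTCCTGTA
Erbb4 product: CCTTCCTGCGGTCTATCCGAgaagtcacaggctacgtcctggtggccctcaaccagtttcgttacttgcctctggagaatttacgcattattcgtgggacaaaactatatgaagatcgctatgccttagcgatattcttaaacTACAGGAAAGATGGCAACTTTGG

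The study examined *Erbb4* as a target of retinoic acid, so promoters were searched on both strands for AGGTCA, a core hexamer that retinoic acid receptors bind as spaced repeats. RefSeq promoters of 300 bases on GRCm38.p6 were used, from 250 bases before the gene start to 50 after it. Results are given for 5 of the 9 genes (*Egfr*, *Erbb2*, *Erbb4*, *Nrg3* and *Nrg4*), and the rest of the family was not covered. The hexamer occurred in 16.3% of all 32851 promoters of this length. In the promoter of *Erbb4* (chr1:69108010-69108309, minus strand) it had no match. The promoter of *Nrg4* (chr9:55283576-55283875, minus strand) held 2 matches, shown in capitals as TGACCT on the printed strand, and lies inside the gene as GENCODE M21 draws it. Those of *Egfr*, *Erbb2* and *Nrg3* held none. Spaced repeats of the form AGGTCANAGGTCA, AGGTCANNAGGTCA or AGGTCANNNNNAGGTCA were found in none of the 5. The first occurred in 0.0396% of all promoters and each of the others in 0.00913%. These are exact matches of letters in a short window, not binding sites, and variants of the hexamer were not searched.
Erbb4 promoter: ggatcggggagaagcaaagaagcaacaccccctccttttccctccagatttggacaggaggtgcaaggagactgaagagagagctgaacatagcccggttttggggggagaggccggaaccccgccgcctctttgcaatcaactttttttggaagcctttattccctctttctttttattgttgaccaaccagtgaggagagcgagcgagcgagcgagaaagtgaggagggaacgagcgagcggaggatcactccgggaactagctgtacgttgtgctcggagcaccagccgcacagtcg
Nrg4 promoter: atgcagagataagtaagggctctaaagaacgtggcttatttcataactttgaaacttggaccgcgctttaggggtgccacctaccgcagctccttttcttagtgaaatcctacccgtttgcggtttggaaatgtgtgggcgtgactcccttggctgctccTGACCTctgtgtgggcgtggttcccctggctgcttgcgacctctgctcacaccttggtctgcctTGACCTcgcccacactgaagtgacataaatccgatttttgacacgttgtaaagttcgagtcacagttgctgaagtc

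The libraries held 7293272 to 8675252 counts on genes in WT mice and 8871052 to 11314409 in Ube3a m-/p+ mice. The targeted gene, *Ube3a*, ranged from 104 to 151 CPM (counts per 1000000 counts on genes) in WT mice and from 80.6 to 96.8 CPM in Ube3a m-/p+ mice, and was called lower (log2 fold change -0.58, standard error 0.12, adjusted p = 0.0363, edgeR). Its exons overlap those of *Snhg14* on the opposite strand over 1803 bp, and after the correction described next the value was -0.20 (adjusted p = 0.240, edgeR). Libraries differed in how expression followed GC content. A gene's GC content was correlated with how far its log2 CPM lay from the average over all mice, and across 14201 genes Spearman's rho came to 0.0455, -0.506 and -0.571 for WT mice 1, 2 and 3, against 0.0588, 0.526 and 0.528 for Ube3a m-/p+ mice 1, 2 and 3. This gradient runs with genotype except in the mice numbered 1, and a fit corrected for GC content and transcript length is given beside the fold changes of the members and of the pathway genes named. Neuronal genes were abundant, such as *Camk2a* at 5550 ± 338 CPM (SD, n = 3) in WT mice, while markers of choroid plexus summed to 99.4 to 2170 CPM in WT mice and 105 to 2260 CPM in Ube3a m-/p+ mice. Different amounts of a neighbouring tissue in the dissected samples were not tested as a source of any difference below.

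A gene was called when its fold change exceeded 1.2 and its p from edgeR's quasi-likelihood test, adjusted by Benjamini-Hochberg over all genes tested, was below 0.05. None of the 9 genes was called, against 2.01% of all genes tested. *Egfr* and *Erbb4* were lower in Ube3a m-/p+ mice at an unadjusted p below 0.05, and no member was higher at that level. These were 2 of 9 genes, while 12.4% of all tested genes were lower and 12.2% were higher at the same level. DESeq2 called 1 member, *Erbb4* (adjusted p = 0.0358), in a fit that called 6.69% of all genes. It gave no adjusted p for *Egfr*, *Erbb2*, *Nrg1*, *Nrg4* and *Hbegf*, so these members could not be called by it. The 6 libraries separated by genotype without overlap for *Egfr* alone, which was lower. Over all tested genes, 14.2% separated in that direction and 10.8% separated with higher values. Fold changes were negative for 6 members and positive for 3, with a median log2 fold change of -0.14, against 0.0025 for all tested genes.

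**Figure D1:**
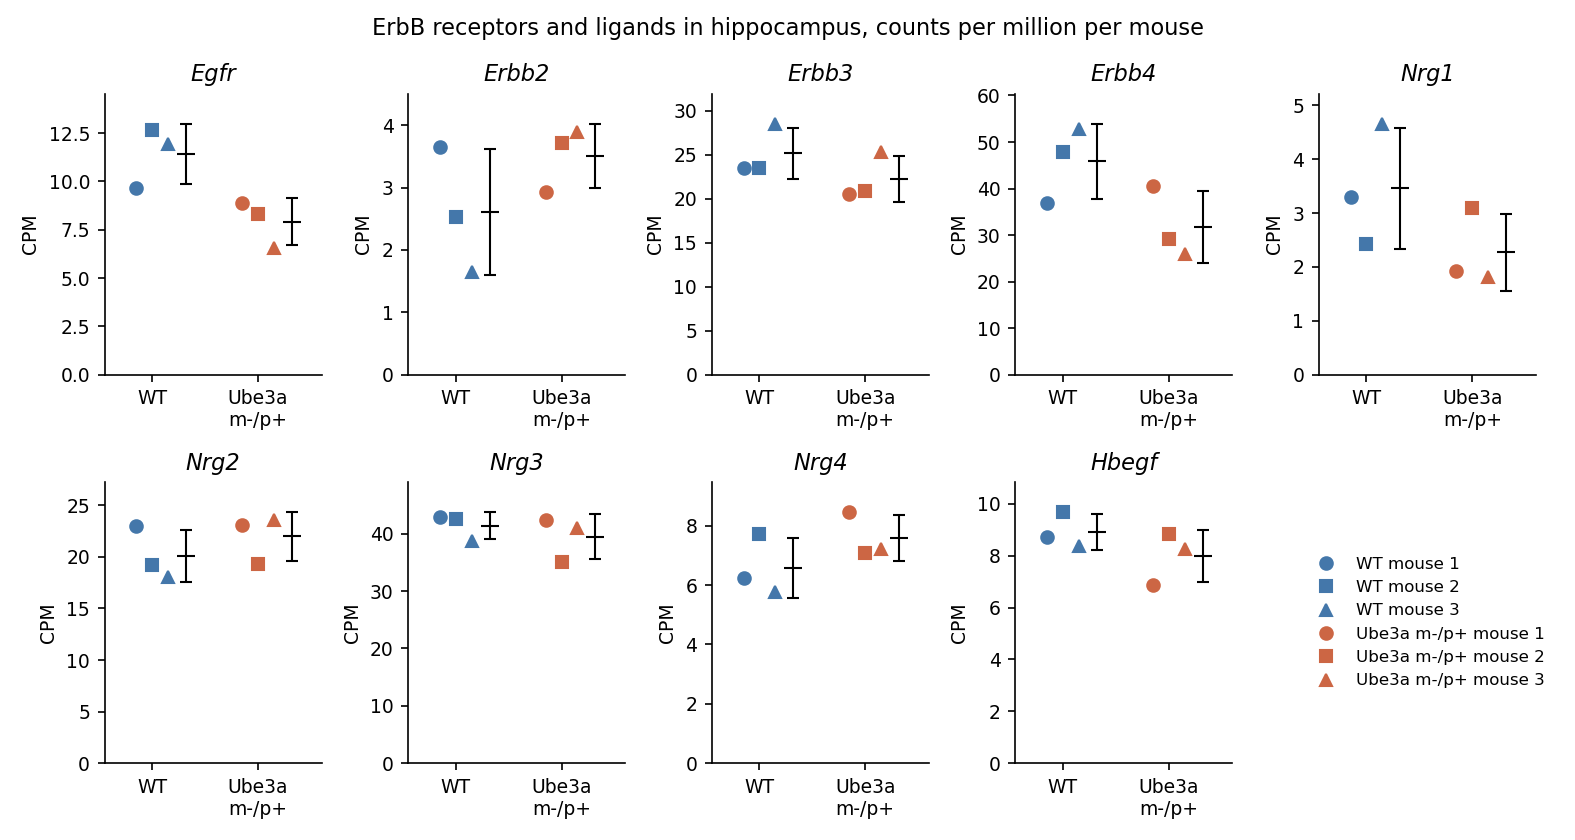
CPM of each gene in each mouse, with 1 panel per gene, colour for genotype and marker shape for the mouse number. Bars are the mean ± SD of 3 mice. The values of *Egfr* in Ube3a m-/p+ mice lie below all WT values, and those of the other 8 genes overlap.

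*Erbb4* (chromosome 1, 68032186 to 69108059, minus strand) spans 1076 kb and is the receptor through which neuregulins act on interneurons. It had 37.0, 47.8 and 52.8 CPM in WT mice 1, 2 and 3, against 40.6, 29.1 and 25.9 CPM for Ube3a m-/p+ mice 1, 2 and 3. The genotypes overlapped through the mice numbered 1, since Ube3a m-/p+ mouse 1 lay above WT mouse 1. The means were 45.9 ± 8.08 CPM and 31.8 ± 7.74 CPM (SD, n = 3 each), and the log2 fold change was -0.51 (95% interval -0.86 to -0.17, adjusted p = 0.0838, edgeR). Corrected for GC content and length, it was -0.24 (standard error 0.10, adjusted p = 0.286, edgeR). The call was gained without WT mouse 1 (-0.65, adjusted p = 0.0134, edgeR) and without Ube3a m-/p+ mouse 1 (-0.71, adjusted p = 0.0070, edgeR), fits that called 17.6% and 12.5% of all genes. Over all alternatives the adjusted p ran from 1.41e-05 to 0.439. The lowest came without both mice numbered 1, a fit chosen after seeing the data, where 28.3% of all genes were called.

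*Egfr* (chromosome 11, 16752203 to 16918158, plus strand) encodes the receptor of EGF, TGF-alpha and HB-EGF. It had 9.66, 12.7 and 11.9 CPM in WT mice 1, 2 and 3, against 8.91, 8.31 and 6.56 CPM for Ube3a m-/p+ mice 1, 2 and 3. Every Ube3a m-/p+ mouse thus lay below every WT mouse, although the nearest values came from the mice numbered 1 and differed little (exact permutation test of log2 CPM, two-sided p = 0.1, the smallest that 3 mice against 3 allow). The log2 fold change was -0.51 (95% interval -0.90 to -0.12, adjusted p = 0.109, edgeR), the same size as that of *Erbb4*, which had 2075 counts over the 6 libraries against 521 for *Egfr*. After correction it was -0.33 (standard error 0.17, adjusted p = 0.386, edgeR). *Egfr* was called without WT mouse 1 (-0.62, adjusted p = 0.0369, edgeR), where 17.6% of all genes were. Its adjusted p ran from 0.0137 to 0.525 over all alternatives. The lowest came without both mice numbered 1, a fit chosen after seeing the data, where 28.3% of all genes were called. Summed astrocyte markers, from cells in which this gene is found, overlapped between the genotypes. They ran from 1447 to 1590 CPM in WT mice and from 1373 to 1470 CPM in Ube3a m-/p+ mice. Of these 5 markers, 2 had positive fold changes and none was called. Another 2, *Aqp4* and *Gja1*, were lower at an unadjusted p below 0.05, against 12.4% of all genes. After correction they had -0.05 and -0.06 (adjusted p = 0.829 and 0.767, edgeR). Of 5 markers of oligodendrocyte precursors, whose sums also overlapped, *Pdgfra* was called lower (-0.43, adjusted p = 0.0466, and -0.36, adjusted p = 0.0461, after correction, edgeR). Before correction, 3 of these 5 had positive fold changes, and the median log2 fold change was 0.02. After correction *Cspg4*, *Olig1* and *Olig2* had -0.23, -0.26 and -0.02 (adjusted p = 0.336, 0.113 and 0.970, edgeR). *Sox10* was higher at an unadjusted p below 0.05 (0.31, adjusted p = 0.0638, and 0.02, adjusted p = 0.936, after correction, edgeR). The part of these cells in the values of *Egfr* was not tested.

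*Erbb3* (chromosome 10, 128567523 to 128589652, minus strand) had 23.4, 23.5 and 28.5 CPM in WT mice 1, 2 and 3, against 20.5, 20.9 and 25.3 CPM for Ube3a m-/p+ mice 1, 2 and 3. The mice numbered 3 stood highest in both genotypes, and the ranges overlapped. The log2 fold change was -0.16 (95% interval -0.44 to 0.12, adjusted p = 0.489, edgeR) and did not move with the correction (-0.16). The summed markers of mature oligodendrocytes were 7954 to 8070 CPM in WT mice and 6641 to 7568 CPM in Ube3a m-/p+ mice, without overlap. Of these 6 markers 3 were lower at an unadjusted p below 0.05, against 12.4% of all genes, 3 had positive fold changes and none was called. The part of these cells in the values of *Erbb3* was not tested.

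*Erbb2* (chromosome 11, 98412470 to 98437716, plus strand), the gene of the partner receptor, was scarce. WT mice 1, 2 and 3 had 31, 22 and 12 counts (1.65 to 3.65 CPM), against 26, 42 and 41 counts (2.93 to 3.90 CPM) for Ube3a m-/p+ mice 1, 2 and 3. WT mouse 3 was the lowest, and its 12 counts have an exact Poisson 95% interval of 6.20 to 21.0, for counting error only. The log2 fold change was 0.44 (95% interval -0.22 to 1.10, adjusted p = 0.401, edgeR), so that neither no difference nor a rise of more than 2-fold lies outside the interval. It was 0.28 after correction, 0.20 without WT mouse 3 and 0.76 without WT mouse 1. Its exons overlap those of *Mien1* on the opposite strand over 9 bp.

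Among the neuregulins, *Nrg3* (chromosome 14, 38368952 to 39473088, minus strand), whose product binds ErbB4 and is made mainly in the nervous system, was the steadiest gene of the family. It had 42.9, 42.7 and 38.7 CPM in WT mice 1, 2 and 3, against 42.4, 35.0 and 41.1 CPM for Ube3a m-/p+ mice 1, 2 and 3. The coefficient of variation was 5.72% in WT mice and 9.97% in Ube3a m-/p+ mice. Their ranges overlapped. The log2 fold change of -0.05 had a 95% interval of -0.28 to 0.18 (adjusted p = 0.793, edgeR), the narrowest of the 9, and was -0.05 after correction too. Its sign turned to 0.04 without Ube3a m-/p+ mouse 2, the lowest of the 6.

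*Nrg2* (chromosome 18, 36017652 to 36197380, minus strand), which encodes a ligand of ErbB3 and ErbB4, had 23.0, 19.3 and 18.1 CPM in WT mice 1, 2 and 3, against 23.1, 19.3 and 23.6 CPM for Ube3a m-/p+ mice 1, 2 and 3. The ranges overlapped over most of their width. Its log2 fold change was 0.14 (95% interval -0.15 to 0.43, adjusted p = 0.554, edgeR). It turned to -0.16 after correction for GC content and length, with *Nrg2* having the highest GC content of the 9 genes (63.4%).

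*Nrg4* (chromosome 9, 55220222 to 55326844, minus strand), whose product binds ErbB4 and is best known from brown fat, had 6.24, 7.72 and 5.76 CPM in WT mice 1, 2 and 3, against 8.45, 7.07 and 7.22 CPM for Ube3a m-/p+ mice 1, 2 and 3. The ranges overlapped through WT mouse 2. Its log2 fold change was 0.21 (95% interval -0.21 to 0.63, adjusted p = 0.534, edgeR) and 0.32 after correction. Exons of *Fbxo22* on the opposite strand overlap those of *Nrg4* over 368 bp, and since the strand setting of the counting is not given in the sources used here, the reads of *Nrg4* are uncertain there.

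*Nrg1* (chromosome 8, 31814551 to 32884029, minus strand), the neuregulin best known for myelination and for synapses of interneurons, had the fewest counts of the family. WT mice 1, 2 and 3 had 28, 21 and 34, against 17, 35 and 19 for Ube3a m-/p+ mice 1, 2 and 3, or 2.42 to 4.66 CPM against 1.81 to 3.09 CPM. Ube3a m-/p+ mouse 2 lay between the WT mice, while the other mice of its genotype lay below all 3. The log2 fold change was -0.56, with a 95% interval of -1.26 to 0.14 (adjusted p = 0.306, edgeR). It was -0.35 after correction, -0.30 without WT mouse 3 and -0.85 without Ube3a m-/p+ mouse 2. At this depth a large loss of *Nrg1* RNA and a small gain are both within the interval. Its exons overlap those of the noncoding gene *Gm26578* on the opposite strand over 482 bp.

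*Hbegf* (chromosome 18, 36504927 to 36515805, minus strand), whose product binds EGFR and ErbB4, had 8.72, 9.68 and 8.36 CPM in WT mice 1, 2 and 3, against 6.88, 8.84 and 8.27 CPM for Ube3a m-/p+ mice 1, 2 and 3. The lowest value was that of Ube3a m-/p+ mouse 1 and the ranges overlapped. Its log2 fold change was -0.14 (95% interval -0.52 to 0.25, adjusted p = 0.681, edgeR) and -0.19 after correction.

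**Figure D2:**
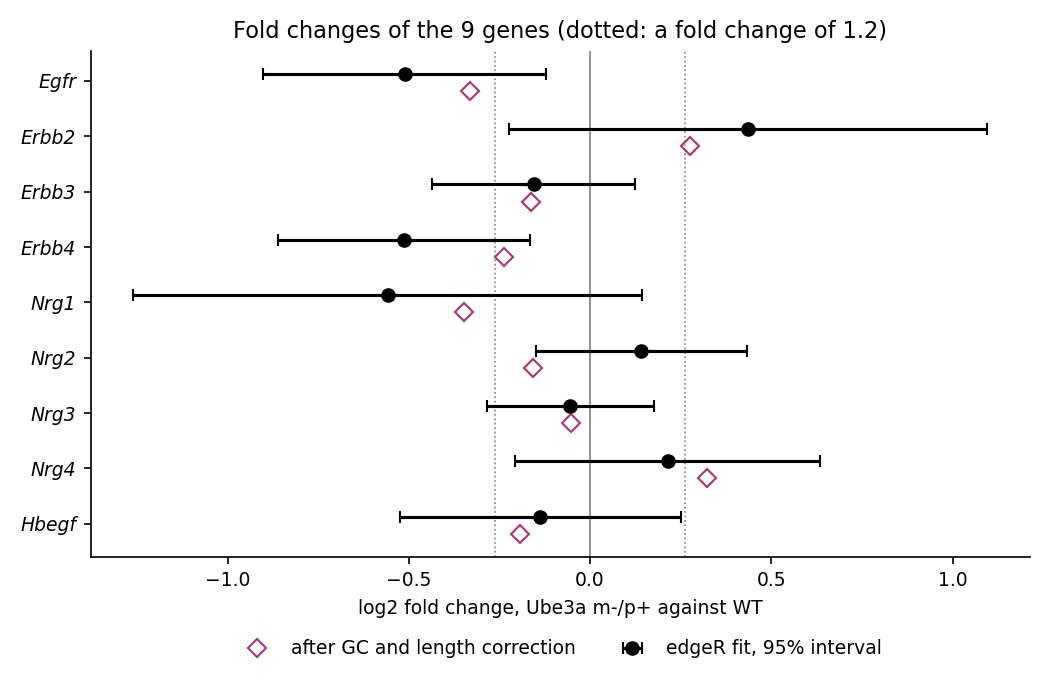
Log2 fold change of each gene in Ube3a m-/p+ against WT mice (n = 3 each), with filled points and 95% intervals from the edgeR fit and open diamonds for the fit corrected for GC content and transcript length. The intervals of *Egfr* (-0.90 to -0.12) and *Erbb4* (-0.86 to -0.17) lie below 0 before adjustment for the number of genes, and *Nrg2* changes sign with the correction.

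Levels of different genes were compared as CPM per kb of exon, over all annotated exons of a gene. In the mean of the 6 libraries the order was *Nrg2* (6.70 ± 0.773 CPM per kb, SD, n = 6), *Nrg3* (5.93 ± 0.453), *Erbb3* (3.94 ± 0.493), *Erbb4* (3.14 ± 0.846), *Hbegf* (1.75 ± 0.191), *Nrg4* (1.17 ± 0.161), *Egfr* (0.854 ± 0.202), *Erbb2* (0.588 ± 0.167) and *Nrg1* (0.277 ± 0.103). *Nrg3* stood above *Erbb3*, *Erbb4* above *Hbegf*, and *Hbegf* above *Nrg4* in all 6 libraries without overlap of their ranges. The ranges of all other neighbours in this order overlapped. Among the tested genes *Nrg2* lay at percentile 53.1 of this level and *Nrg1* at percentile 1.57. The order depends on the length taken: over the longest transcript alone *Nrg3* came first and *Nrg4* moved from rank 6 to rank 4.

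**Figure D3:**
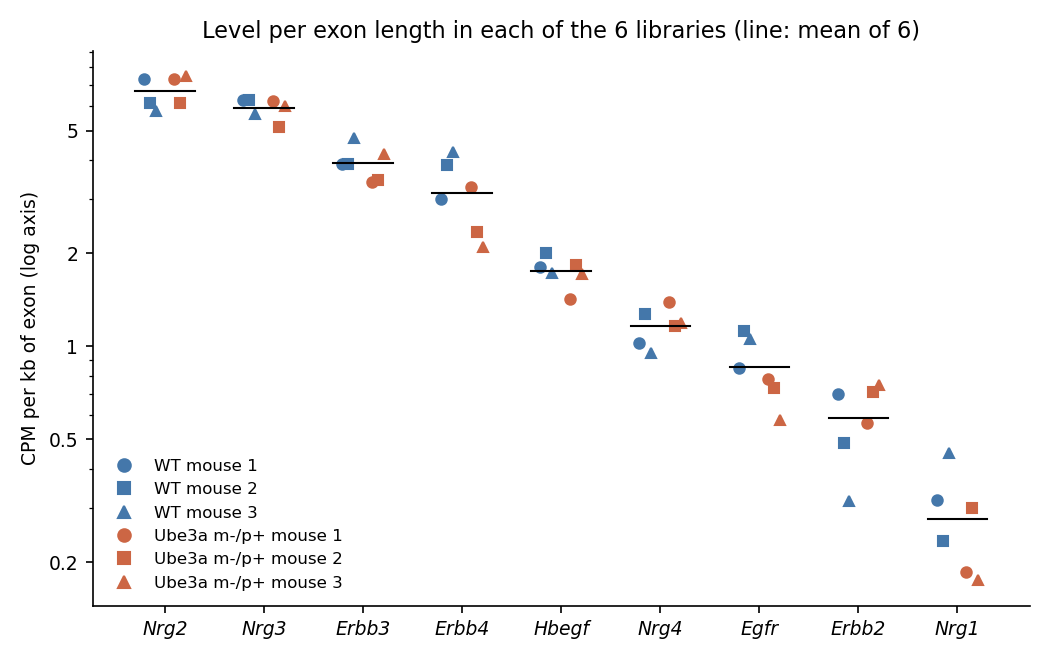
Level of each gene in each of the 6 libraries in CPM per kb of annotated exon, on a log axis, with colour for genotype, marker shape for the mouse number and a line at the mean of 6. Neuregulin genes stand at both ends of the order, *Nrg2* and *Nrg3* at the top and *Nrg1* at the bottom.

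The makeup of the family was followed through each gene's share of the summed CPM per kb. Shares and sums were taken without the correction for GC content and length. The part in them of the GC gradient, which runs with genotype except in the mice numbered 1, was not tested. In WT mice *Erbb3* made up 44.5 ± 2.47% of the receptor level, *Erbb4* 39.3 ± 3.32%, *Egfr* 10.7 ± 1.04% and *Erbb2* 5.51 ± 2.64% (SD, n = 3). In Ube3a m-/p+ mice these shares were 48.4 ± 6.40%, 33.6 ± 6.77%, 9.16 ± 1.36% and 8.87 ± 1.63% (SD, n = 3). The share of *Egfr* was lower in every Ube3a m-/p+ mouse than in any WT mouse, although by less than 0.1 percentage points at the nearest pair, 10.1% in both. Within the neuregulins, *Nrg2* and *Nrg3* together held most of the level, with 46.0 ± 2.57% and 43.8 ± 1.53% in WT mice and 49.1 ± 1.18% and 40.6 ± 0.379% in Ube3a m-/p+ mice (SD, n = 3). The share of *Nrg3* was lower in all 3 Ube3a m-/p+ mice. The summed receptor level was 9.40 ± 0.969 CPM per kb in WT mice and 7.64 ± 0.389 in Ube3a m-/p+ mice (SD, n = 3), without overlap, while the summed neuregulin level was 13.9 ± 1.06 and 14.3 ± 1.33 (SD, n = 3). Exact permutation tests of these 8 shares and 2 sums gave two-sided p-values from 0.1, the smallest possible, to 0.8, and from 0.333 to 0.8 after Benjamini-Hochberg adjustment over the 10. With 3 mice against 3 these tests could not fall below 0.1, so no difference of share could pass the threshold.

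**Figure D4:**
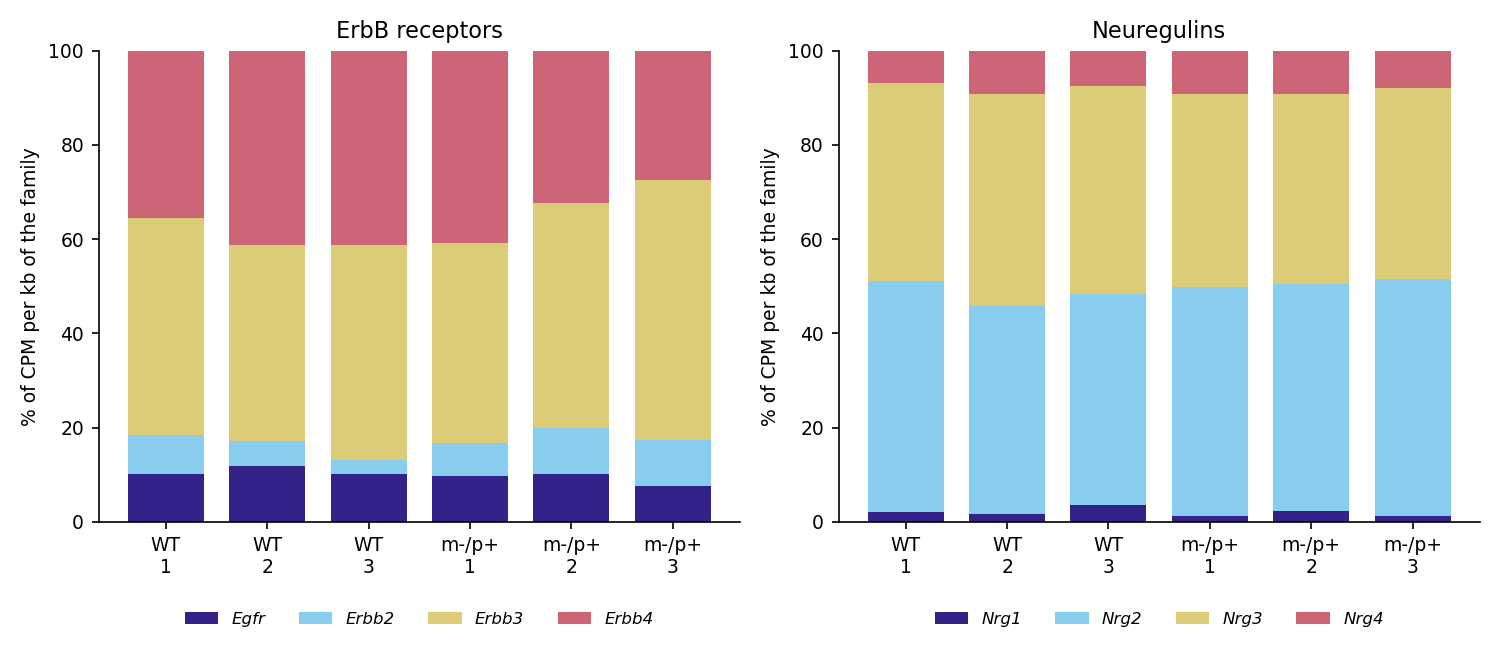
Share of each gene in the summed CPM per kb of the ErbB receptors (left) and of the neuregulins (right), as stacked bars for each of the 6 mice. *Erbb4* takes 35.5% to 41.2% of the receptor level in WT mice and 27.5% to 40.8% in Ube3a m-/p+ mice.

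Fold changes were set beside the GC content of the longest transcripts. This GC content was 40.6% for *Erbb4*, 42.7% for *Nrg1*, 44.1% for *Nrg4*, 44.4% for *Egfr*, 49.5% for *Nrg3*, 51.2% for *Erbb3*, 51.5% for *Hbegf*, 57.3% for *Erbb2* and 63.4% for *Nrg2*. In the lowest quintile of the tested genes by GC content, which holds *Erbb4* and *Nrg1*, the median log2 fold change was -0.24 and 38.5% of the genes were lower at an unadjusted p below 0.05. In the highest quintile, which holds *Erbb2* and *Nrg2*, the median was 0.22 and 0.387% of the genes were lower at that level. *Erbb4*, *Nrg1*, *Egfr*, *Erbb3*, *Hbegf*, *Nrg3* and *Nrg2* lay below the median of their quintile. *Nrg4* lay above its own (-0.11), as did *Erbb2* (0.22). The standard errors of these genes are drawn in the plot of fold change against GC content. After correction the members had a median log2 fold change of -0.16, with 7 of them negative and none called, in a fit that called 0.648% of all genes.

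**Figure D5:**
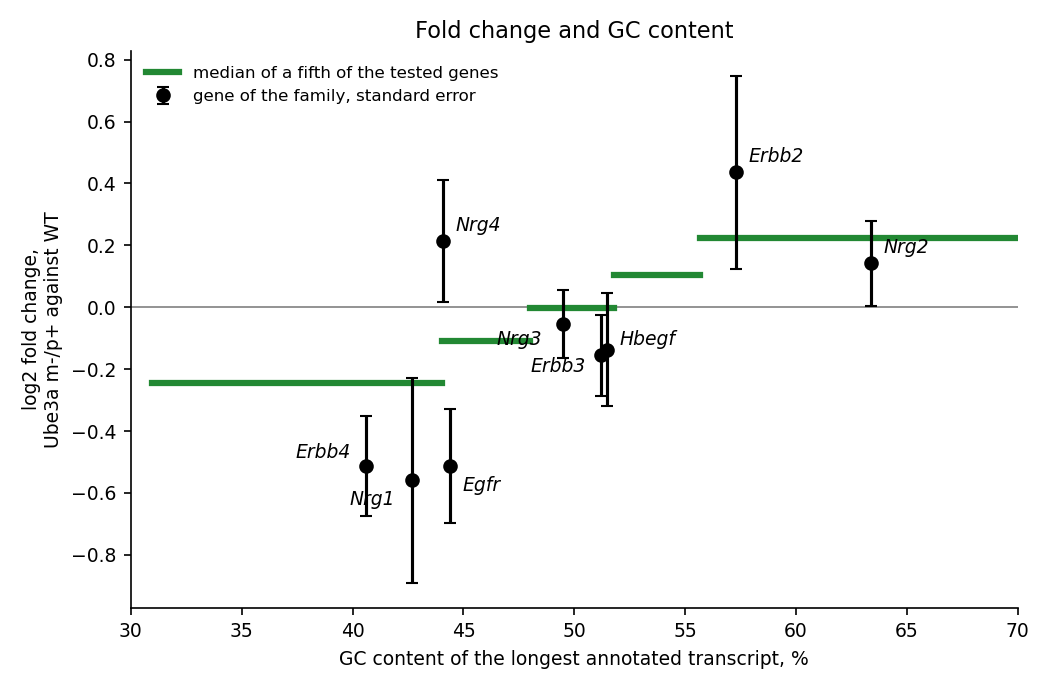
Log2 fold change in Ube3a m-/p+ against WT mice (n = 3 each) plotted against the GC content of the longest transcript, with standard errors for the 9 genes and green bars for the median of each quintile of tested genes (the axis ends at 70%). The medians step from -0.24 to 0.22, and the members with low GC content other than *Nrg4* lie below 0.

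Since *Erbb4* marks interneurons, it was set against their markers. Of 10 interneuron marker genes, none was called. At an unadjusted p below 0.05, 2 were lower and 1 was higher, against 12.4% and 12.2% of all genes. Of the 10, 6 had positive fold changes, and the median log2 fold change was 0.05. *Gad1* and *Gad2*, the genes of the GABA-synthesizing enzymes, had log2 fold changes of -0.21 and -0.37, and *Slc32a1*, the vesicular GABA transporter, had 0.32 (adjusted p of 0.116, 0.0595 and 0.155, edgeR). Their GC contents were 47.3%, 44.1% and 61.9%, and after correction the values were -0.15, -0.20 and 0.04. The 10 markers summed to 739 to 763 CPM in WT mice and 666 to 703 CPM in Ube3a m-/p+ mice, without overlap. *Gad1* and *Gad2*, at 274 and 155 CPM in WT mice against 235 and 118 CPM in Ube3a m-/p+ mice, make up much of this sum. The part of these cells in the values of *Erbb4* was not tested. None of the 10 was at 0. The log2 ratio of *Erbb4* to the mean of *Gad1*, *Gad2* and *Slc32a1* was -2.07, -1.76 and -1.66 in WT mice 1, 2 and 3, against -1.80, -2.29 and -2.40 for Ube3a m-/p+ mice 1, 2 and 3. The genotypes overlapped through the mice numbered 1, as they did for *Erbb4* itself, and the difference was -0.34 (exact permutation test, two-sided p = 0.2). Against all 10 markers it was -0.41 (exact permutation test, two-sided p = 0.2). In bulk tissue, fewer cells of a type and less RNA per cell cannot be told apart.

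Other genes of the pathway were taken from 5 lists of 56 genes, of which 52 were tested. Of these, 2 were called, both lower, against 2.01% of all genes called. At an unadjusted p below 0.05, 11 were lower and 8 were higher, against 12.4% and 12.2% of all genes. The median log2 fold change was -0.07, and -0.0004 after correction. Both called genes were regulators of receptor turnover. *Cblb*, a ubiquitin ligase that acts on activated receptors, had 57.4, 60.5 and 55.3 CPM in WT mice 1, 2 and 3, against 46.3, 39.2 and 39.6 CPM for Ube3a m-/p+ mice 1, 2 and 3, and fell by 0.45 on the log2 scale (standard error 0.10, adjusted p = 0.0387, edgeR). *Eps15*, an adaptor of receptor endocytosis, had 378 to 435 CPM in WT mice and 286 to 332 CPM in Ube3a m-/p+ mice, and fell by 0.40 on the log2 scale (standard error 0.09, adjusted p = 0.0387, edgeR). Neither call held after correction for GC content and length, which gave -0.34 (adjusted p = 0.0689, edgeR) for *Cblb* and -0.16 (adjusted p = 0.306, edgeR) for *Eps15*. Both calls were also lost without any 1 of WT mouse 2, WT mouse 3, Ube3a m-/p+ mouse 2 or Ube3a m-/p+ mouse 3 and with the replicate number as a block. Those fits called 0% to 0.0137% of all genes and the corrected fit 0.648%, so the losses are not particular to these 2 genes. Of the 14 turnover genes 10 had negative fold changes, against 49.7% of all genes, and the median of the list was -0.17 before and 0.01 after correction.

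The remaining lists held no call. Of the 6 further ligands of EGFR and ErbB4, *Areg* and *Ereg* had 0 counts in the 6 libraries, *Epgn* 1 and *Btc* 15, and *Tgfa* and *Egf* were tested. *Tgfa*, which encodes a ligand of EGFR, had 45.8 to 50.7 CPM in WT mice and 41.5 to 44.6 CPM in Ube3a m-/p+ mice, without overlap (log2 fold change -0.16, adjusted p = 0.329, edgeR, and -0.18 after correction). *Egf* was rare, with 101 counts over the 6 libraries against 2520 for *Tgfa* (-0.45, adjusted p = 0.415, edgeR, and -0.44 after correction). Among 9 genes of the proteases that cut ligands and receptors, none had an unadjusted p below 0.05, and the smallest belonged to the gamma-secretase genes *Psen2* (log2 fold change 0.32, adjusted p = 0.205, edgeR) and *Aph1a* (0.22, adjusted p = 0.312, edgeR), which had 0.15 and 0.11 after correction. Among 23 adaptors and kinases, 5 were lower and 5 higher at an unadjusted p below 0.05, led by *Mapk3*, which encodes the kinase ERK1 (0.30, adjusted p = 0.0649, edgeR), and *Sos1*, an activator of Ras (-0.36, adjusted p = 0.0722, edgeR). After correction these were 0.07 and -0.09. Neither reached the threshold. Of the 4 genes of the PSD-95 family, scaffolds that bind ErbB4 at synapses, *Dlg2* had -0.27 (adjusted p = 0.102, edgeR) and *Dlg4*, the gene of PSD-95 itself, 0.28 (adjusted p = 0.114, edgeR), and after correction these were -0.09 and 0.39.

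Lastly, the values of *Erbb4* over the 6 libraries were compared with those of 11837 tested genes with at least 50 mean counts, by the root-mean-square difference of log2 CPM centred on the mean of the 6. The nearest were *Zkscan8* (0.0404), *Phtf1os* (0.0560), *Thsd7a* (0.0634), *Pibf1* (0.0639) and *Casp8ap2* (0.0649), against a median of 0.373 over all genes compared. Their GC contents lay between 40.9% and 44.2%, near the 40.6% of *Erbb4*. *Egfr* followed at 0.132, as rank 180, and *Erbb3* at 0.345, as rank 5036. *Phtf1os* is named as a transcript of the opposite strand, and its reads are uncertain where strands were not used in counting.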

How the data were processed

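The deposited files hold counts, whole numbers of reads for each gene symbol, not normalized, with 1 file per mouse. The submitters' processing notes list STAR 2.7.4a, HTSeq and mm10, and the annotation and the strand setting are not given in the sources used here. The 9 genes and the pathway and marker lists were chosen with earlier results of these data known. CPM are counts per 1000000 counts on genes. Reads overlapping no gene made up 54.1% to 55.0% of those listed and stayed out.

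Genes were kept by filterByExpr, scaled by TMM (factors 0.986 to 1.01) and compared by the quasi-likelihood test of edgeR 4.0.16 (R 4.3.3, robust estimates, two-sided), with genotype as the only factor and Benjamini-Hochberg adjustment over the 14445 genes kept. Standard errors are the log2 fold change over the square root of F. Exon lengths, GC content and positions come from GENCODE M21 (GRCm38, the build mm10), and promoters from RefSeq. The correction fitted natural splines (5 degrees of freedom each) of GC content and log2 length of the longest transcript to each library's deviation from the mean of 6, over 14201 genes (98.3%), and served as an offset. DESeq2 1.42.0, other scaling factors and filters, the replicate number as a block and fits that left out mice were run as alternatives. The steps were tested on simulated counts with 200 genes changed and no GC gradient. That test cannot show how the correction handles such a gradient. Genes were named by a rule: the 9 genes, *Ube3a*, list genes called or with the 2 smallest p-values of their list, 3 GABA markers, and the 5 genes nearest to *Erbb4*. *Camk2a*, *Aqp4*, *Gja1*, *Pdgfra*, *Sox10*, *Cspg4*, *Olig1* and *Olig2* were named after their values were seen.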

Additional observations from a re-analysis of the deposited data

How the results depend on the processing

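Of the fold changes of the 9 genes, 7 kept their direction under every alternative run. *Nrg2* reversed with the GC and length correction (-0.16) and with that correction and the replicate block (-0.16), and *Nrg3* without Ube3a m-/p+ mouse 2 (0.038). With 1 mouse left out, log2 fold changes ran from -0.62 to -0.40 for *Egfr*, from -0.71 to -0.39 for *Erbb4*, from -0.10 to 0.038 for *Nrg3*, from -0.27 to -0.07 for *Erbb3* (lowest without Ube3a m-/p+ mouse 3 and highest without WT mouse 3), from 0.13 to 0.35 for *Nrg4* (without WT mouse 3 and WT mouse 2) and from -0.20 to -0.03 for *Hbegf* (without Ube3a m-/p+ mouse 2 and mouse 1). *Erbb4* passed the threshold with DESeq2 (-0.51) and with no filter on low counts (-0.50). Without both mice numbered 1, an alternative chosen after seeing the data, *Erbb4* had -0.85 and *Egfr* -0.71. Both were called, in a fit that called 28.3% of all genes. The number of members called was 1 with DESeq2, which gave some members no adjusted p, and 1 with no filter. These fits called 6.69% and 6.1% of all genes. The number of members called is followed here through the other alternatives. That number was 2 at an unadjusted p below 0.05 with the same fold change, where 2832 of 14445 genes passed. It was also 2 without both mice numbered 1. With 1 mouse left out it was 0 to 2, in fits that called 0% to 17.6% of all genes. The causes were not tested.

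Counts over all genes moved far more. The 290 calls became 967 with DESeq2, 1176 with no filter, 92 with the correction, 0 with the replicate block (2422 at an unadjusted p below 0.05), 13 with block and correction, 2832 at an unadjusted p, 4138 without both mice numbered 1, and 0 to 2582 with 1 mouse left out: 2582 without WT mouse 1, 1816 without Ube3a m-/p+ mouse 1, 2 without Ube3a m-/p+ mouse 3, and 0 without WT mouse 2, WT mouse 3 or Ube3a m-/p+ mouse 2 (2075, 2159 and 2128 at an unadjusted p below 0.05). The 2 calls among pathway genes became 6, 8, 0, 0, 0, 12 and 23 in the same order, and 0 to 18 with 1 mouse left out. The lowest counts, 12 for *Erbb2* and 17 for *Nrg1*, limit what these libraries can show for those genes.

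The deviations of same-numbered mice from their genotype means correlated at -0.285, -0.177 and -0.311 across genes. By this measure none of the 6 libraries lay closest to its own number in the other genotype. These values cannot decide whether the replicate numbers pair the mice. Taking deviations from genotype means gives the mice numbered 1 opposite GC trends, although their rho with GC content was alike before that (0.0455 and 0.0588). With the replicate block no member was called, in a fit that called 0% of all genes.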
